A study of Mus musculus with 17 samples.

Results

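Transforming growth factor beta (TGF-beta) signalling was followed through 8 genes in 17 mouse mammary tumours. They were the 3 ligand genes Tgfb1, Tgfb2 and Tgfb3, the related ligand subunit gene Inhba, the receptor genes Tgfbr1 and Tgfbr2, the activator gene Thbs1 and the target gene Tgfbi. The genes were chosen by name, as ligands, receptors, an activator and a target of the pathway, and each was read from its brightest probe set, by mean over the 17 arrays. All 8 had such a probe set, out of 12393 genes measured.

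The tumours came from FVB mice carrying a transgene for Myc T58A, a mutant of the transcription factor Myc, under the MMTV promoter, a viral promoter that drives expression in mammary epithelial cells. The series calls the tumours low expressing. All groups shared the strain, the transgene and the absence of a listed treatment, so no normal mammary tissue and no tumour of another origin stood beside them. The labels give no age. Histology divided the tumours into 9 Squamous, 6 EMT (epithelial to mesenchymal transition), 1 Papillary and 1 Microacinar, and only Squamous and EMT could be compared with a spread. Numbers such as EMT 4 tell tumours of a histology apart and carry no order. Whole tumours were extracted, so a value is a mean over all the cells of a tumour, and fewer cells of a type cannot be told apart from less RNA per cell. The labels do not say whether the tumours came from separate animals, so p-values measure only the spread between these tumours. Values are log2 array values in the deposited form, and their precision is limited by how few tumours there are.

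The 3 arrays of EMT 5, EMT 6 and Squamous 9 had titles containing TM, and the 14 others had numbered titles. The TM arrays spread their probe sets more widely (SD 2.46 to 2.51, against 2.25 to 2.29 on the others), so the fit carries a term for the title format. Among Squamous tumours this term rests on Squamous 9 alone, so it is partly mixed with histology. Without it the fitted log2 differences, EMT minus Squamous, were larger: 1.05 for Inhba (0.59 with it) and 0.87 for Tgfbr2 (0.51). For Tgfbi the difference was 0.78 without it (0.42 with it) and for Tgfb2 -1.17 (-0.88). No gene was called either way (limma, adjusted p under 0.05). On these 3 arrays 2989 probe sets shared a single value, and no probe set of the 8 genes was among them. Epithelial markers lay between 10.50 and 11.42, as the mean of 13 genes, in the Squamous tumours. In EMT 1, EMT 2 and EMT 3 that mean was 11.07, 10.64 and 11.55, and in EMT 4, EMT 5 and EMT 6 it was 7.44, 6.18 and 7.13. The EMT label therefore covered 3 tumours with epithelial markers at or above the lower end of the Squamous range and 3 tumours far below it. The mean of 9 squamous keratinocyte markers ranged from 7.24 to 11.93 in the tumours labelled Squamous. RNA integrity, as the 3′ minus 5′ difference of the Gapdh control, ranged from -0.02 to 0.38 in Squamous and from -0.03 to 0.39 in EMT tumours. For the beta-actin control it ranged from 0.62 to 0.96 (median 0.76) in Squamous and from 0.44 to 0.82 (median 0.58) in EMT tumours, and its part in the levels was not tested.

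TGF-beta is secreted in a latent form bound to its own propeptide and to the extracellular matrix, and integrins, proteases or thrombospondin release it. The free ligand binds the type II receptor, which phosphorylates the type I receptor, which in turn phosphorylates the Smad proteins that enter the nucleus and regulate target genes. Activins, dimers of inhibin beta subunits such as the product of Inhba, signal through related receptors to the same Smads. In mammary epithelium TGF-beta is known both for restraining proliferation and, in carcinoma cells, for promoting loss of epithelial character.

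Between the 2 histologies none of the 8 genes passed the test, limma with an adjusted p under 0.05, which called 0% of the 12393 genes. Across single tumours, however, 6 of the 8 varied together. How common such shared variation is among other genes was not computed. Tgfbr2, Tgfb1, Tgfbi and Inhba were high in the same tumours, with Tgfbr1 following less closely. Tgfb2 was low in those tumours and high where they were low. Tgfb3 and Thbs1 kept to neither pattern.

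The sequences just upstream of these starts are shown because Tgfb1, Tgfbr2, Tgfbi and Inhba varied together while Tgfb2 varied against them. Each is the 250 bases before an annotated start, from RefSeq on GRCm38.p6, written 5′ to 3′ on the gene's strand. The Tgfb1, Tgfbr2 and Tgfbi windows lie just outside the annotated gene. The Inhba and Tgfb2 windows lie inside it, before an internal start. RefSeq windows were matched for 6 of the 8 genes; Tgfb3 and Thbs1 had none in the table used. Capitals mark matches, on either strand, to the Smad-binding letters CAGAC, the GC box GGGCGG, the TATA box TATAAA and the CCAAT box. The AP-1 letters TGANTCA and the E-box CACCTG were searched too and have no match in these 5 windows.
Tgfb1, chr7:25686752-25687001, plus strand: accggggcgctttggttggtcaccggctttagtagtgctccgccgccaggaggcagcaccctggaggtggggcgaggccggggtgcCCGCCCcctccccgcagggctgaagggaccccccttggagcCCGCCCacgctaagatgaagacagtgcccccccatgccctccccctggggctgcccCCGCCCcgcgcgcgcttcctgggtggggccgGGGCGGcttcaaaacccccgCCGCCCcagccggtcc
Tgfbr2, chr9:116175364-116175613, minus strand: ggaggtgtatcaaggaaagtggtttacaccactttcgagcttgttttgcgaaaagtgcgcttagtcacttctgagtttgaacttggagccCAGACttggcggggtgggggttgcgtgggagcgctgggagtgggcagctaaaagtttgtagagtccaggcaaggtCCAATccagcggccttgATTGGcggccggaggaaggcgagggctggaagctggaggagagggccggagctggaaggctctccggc
Tgfbi, chr13:56609336-56609585, plus strand: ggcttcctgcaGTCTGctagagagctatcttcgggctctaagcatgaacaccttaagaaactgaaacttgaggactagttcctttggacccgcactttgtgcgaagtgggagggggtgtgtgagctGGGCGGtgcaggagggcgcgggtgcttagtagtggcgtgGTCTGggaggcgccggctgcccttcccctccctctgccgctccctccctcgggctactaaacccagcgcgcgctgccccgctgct
Inhba, chr13:16011601-16011850, plus strand: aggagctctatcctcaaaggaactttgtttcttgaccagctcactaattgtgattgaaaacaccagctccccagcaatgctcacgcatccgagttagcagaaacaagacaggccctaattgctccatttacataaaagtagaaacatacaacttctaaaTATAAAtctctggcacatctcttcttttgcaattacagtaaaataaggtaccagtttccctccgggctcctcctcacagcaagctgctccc
Tgfb2, chr1:186705990-186706239, minus strand: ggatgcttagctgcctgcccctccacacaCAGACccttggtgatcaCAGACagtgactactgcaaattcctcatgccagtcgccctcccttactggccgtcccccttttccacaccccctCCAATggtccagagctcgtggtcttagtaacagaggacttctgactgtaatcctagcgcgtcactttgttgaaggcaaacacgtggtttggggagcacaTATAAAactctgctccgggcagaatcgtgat

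The windows of the 4 genes that varied together did not look alike. The Tgfb1 window had 5 GC boxes and no other match, with a GC content of 75.2%, against a median of 52.4% over 32817 mouse windows of the same length. The Inhba window had a GC content of 43.2% and a single match, a TATA box that begins 91 bases before the start. The Tgfbr2 window had 1 CAGAC and 2 CCAAT boxes, and the Tgfbi window had 2 CAGAC and 1 GC box. The Tgfb2 window, of the gene that varied in the opposite sense, had 2 CAGAC as well as a CCAAT match, and its TATA box begins 31 bases before the start. CAGAC was therefore in the windows of Tgfbr2, Tgfbi and Tgfb2 and not in those of Tgfb1 and Inhba. Of all windows 42.2% held CAGAC, 32.7% the GC box, 33.8% CCAAT, 12.4% TATAAA, 6.75% TGANTCA and 17.2% CACCTG, and no 2 of these motifs overlap in the windows shown. A match describes letters and does not show a bound site.

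Tgfb1, a ligand made by many immune and stromal cells, ranged in the Squamous tumours from 7.86 (Squamous 2) over a median of 9.57 to 9.90 (Squamous 5). In EMT 1 to EMT 6 it was 9.12, 10.18, 8.78, 9.68, 10.43 and 10.14. EMT 2, EMT 5 and EMT 6 lay above every Squamous tumour, and the other 3 EMT tumours lay inside the Squamous range. The Papillary tumour had 8.57 and the Microacinar tumour 8.76, both near the low Squamous tumours. The mean of the EMT tumours was 9.72 ± 0.65 (SD, n = 6) and that of the Squamous tumours 9.18 ± 0.74 (SD, n = 9). The fitted log2 difference, EMT minus Squamous, was 0.38 with an SE of 0.345 (limma, adjusted p = 0.642), within the spread between tumours. It was 0.20 without EMT 2 and 0.24 without Squamous 2.

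Tgfb2, a ligand of the same family, ran the other way. Its Squamous values went from 7.58 (Squamous 9) over a median of 8.64 to 9.69 (Squamous 1). Its EMT values were 8.34, 6.96, 9.56, 7.19, 6.94 and 6.39 in EMT 1 to EMT 6. On the probe set used, EMT 2, EMT 4, EMT 5 and EMT 6 lay below every Squamous tumour. EMT 1 lay inside their range and EMT 3 near its top. The Papillary tumour (9.38) and the Microacinar tumour (9.07) were among the highest. The mean of the EMT tumours was 7.56 ± 1.17 (SD, n = 6) and that of the Squamous tumours 8.73 ± 0.64 (SD, n = 9).

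The fitted difference of Tgfb2 was -0.88, with an SE of 0.372 and a 95% interval from -1.68 to -0.08 (limma, adjusted p = 0.317). Tgfb2 did not pass the threshold, and of the 8 genes it was the only one with an unadjusted p under 0.05. Of all genes, 14.3% had such a p in this fit, so 1 of 8 is near the background. An exact two-sided permutation took the plain difference in means, -1.17 for Tgfb2, without the title format term. Over 5005 splits of the tumours this permutation gave p = 0.0296 for Tgfb2 (adjusted p = 0.266), where 16% of all genes had an unadjusted p under 0.05. The other 2 Tgfb2 probe sets had fitted differences of -0.87 and -0.93. On the latter, EMT 4 (6.89) lay just above the lowest Squamous tumour, Squamous 9 (6.86). Without EMT 3 the difference was -1.27 with an adjusted p of 0.0805 by limma. With array weights it was -0.39. Among the numbered arrays it was -0.87.

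Tgfb3, the ligand that mammary tissue is known to make during involution, was level between the histologies. It ranged from 8.72 (Squamous 2) over a median of 9.99 to 10.36 (Squamous 8) in Squamous tumours. In EMT 1 to EMT 6 it was 9.65, 8.98, 9.98, 11.10, 8.61 and 10.02. The Microacinar tumour (11.11) and EMT 4 (11.10) were highest of the 17, and EMT 5 was lowest. The fitted difference was 0.01 with an SE of 0.349 (limma, adjusted p = 0.995) and a 95% interval from -0.74 to 0.76, so a difference of up to that size in either direction was not resolved.

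Inhba encodes the inhibin beta A subunit, which forms activin A. It had the widest range of the 8 genes, from 6.99 in Squamous 1 to 11.56 in EMT 6. Among Squamous tumours the median was 8.36 and the highest value 9.92 (Squamous 9). The EMT values were 7.78, 9.63, 8.50, 9.35, 10.97 and 11.56 in EMT 1 to EMT 6. Only EMT 5 and EMT 6, both on TM arrays, lay above every Squamous tumour, and the highest Squamous tumour was on the remaining TM array. The Papillary (7.67) and Microacinar (7.83) tumours were low. The fitted difference was 0.59 with an SE of 0.432 (limma, adjusted p = 0.546), and among the numbered arrays alone it was 0.40. With array weights it was 0.09, and without EMT 1 it was 0.89.

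Tgfbr2 encodes the type II receptor that binds the ligand first. Its Squamous values went from 9.36 (Squamous 1) over a median of 10.78 to 11.49 (Squamous 9). In EMT 1 to EMT 6 it was 9.87, 10.95, 10.39, 12.08, 12.91 and 12.92. On the probe set used, EMT 4, EMT 5 and EMT 6 lay above every Squamous tumour. These were the same 3 tumours whose epithelial marker means were lowest. EMT 1, EMT 2 and EMT 3 lay inside the Squamous range, as did the Papillary (10.11) and Microacinar (10.81) tumours. The mean of the EMT tumours was 11.52 ± 1.31 (SD, n = 6) and that of the Squamous tumours 10.65 ± 0.71 (SD, n = 9). The fitted difference was 0.51 with an SE of 0.382 (limma, adjusted p = 0.559). It was 0.28 among the numbered arrays, 0.22 without EMT 4, 0.79 without EMT 1 and 0.02 with array weights. A second probe set gave 0.48, and the last one, whose mean level of 3.43 was near the bottom of the arrays, gave 0.07. On the second probe set EMT 2 (7.26) and the Microacinar tumour (7.13) also lay above the highest Squamous tumour, Squamous 7 (7.08).

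Tgfbr1 encodes the type I receptor that carries the signal to the Smads. Its SD among the 9 Squamous tumours, 0.36, was the lowest of the 8 genes. Squamous values ran from 9.81 (Squamous 2) over a median of 10.17 to 10.75 (Squamous 8). In EMT 1 to EMT 6 it was 9.81, 10.16, 10.04, 10.26, 10.69 and 12.00. EMT 6 stood above every other tumour, on the probe set used and on the other 2. On the probe set used, no other EMT tumour lay above the Squamous range. On the probe set with the lowest mean (4.79), EMT 5 (5.42) also lay above the highest Squamous tumour, Squamous 9 (4.98). The Papillary and Microacinar tumours had 10.24 and 10.29. The fitted difference was 0.06 with an SE of 0.234 (limma, adjusted p = 0.935), and among the numbered arrays it was -0.14.

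Thbs1 encodes thrombospondin 1, a matrix protein of platelets and stromal cells that can release TGF-beta from its latent form. Squamous values ran from 8.38 (Squamous 6) over a median of 9.49 to 10.43 (Squamous 5). The EMT values were 8.43, 9.91, 10.46, 9.12, 10.43 and 8.30 in EMT 1 to EMT 6. On the probe set used, EMT 3 had the highest and EMT 6 the lowest level of all 17 tumours. On the other probe set these were EMT 5 (9.17) and Squamous 8 (6.80). The EMT values of the probe set used spanned the whole range. The fitted difference was 0.02 with an SE of 0.455 (limma, adjusted p = 0.988) and a 95% interval from -0.96 to 1.00.

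Tgfbi encodes a secreted matrix protein named for its induction by TGF-beta. In Squamous tumours it ranged from 8.87 (Squamous 2) over a median of 10.86 to 11.85 (Squamous 9). In EMT 1 to EMT 6 it was 9.76, 12.04, 10.13, 11.55, 12.72 and 12.83. On the probe set used, EMT 2, EMT 5 and EMT 6 lay above every Squamous tumour, the same 3 as for Tgfb1. The Microacinar tumour, at 9.30, was lower than all tumours but Squamous 2, and the Papillary tumour had 10.19. The fitted difference was 0.42 with an SE of 0.463 (limma, adjusted p = 0.711). It was 0.14 without EMT 2, 0.23 without Squamous 2, 0.27 without EMT 4, 0.63 without EMT 3 and 0.72 without EMT 1. The other 3 Tgfbi probe sets gave 0.50, 0.37 and 0.47. On the one that gave 0.37, only EMT 2 (11.15) lay above every Squamous tumour. EMT 5 (10.86) and EMT 6 (10.54) lay below Squamous 3 (10.97) there.

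**Figure D1:**
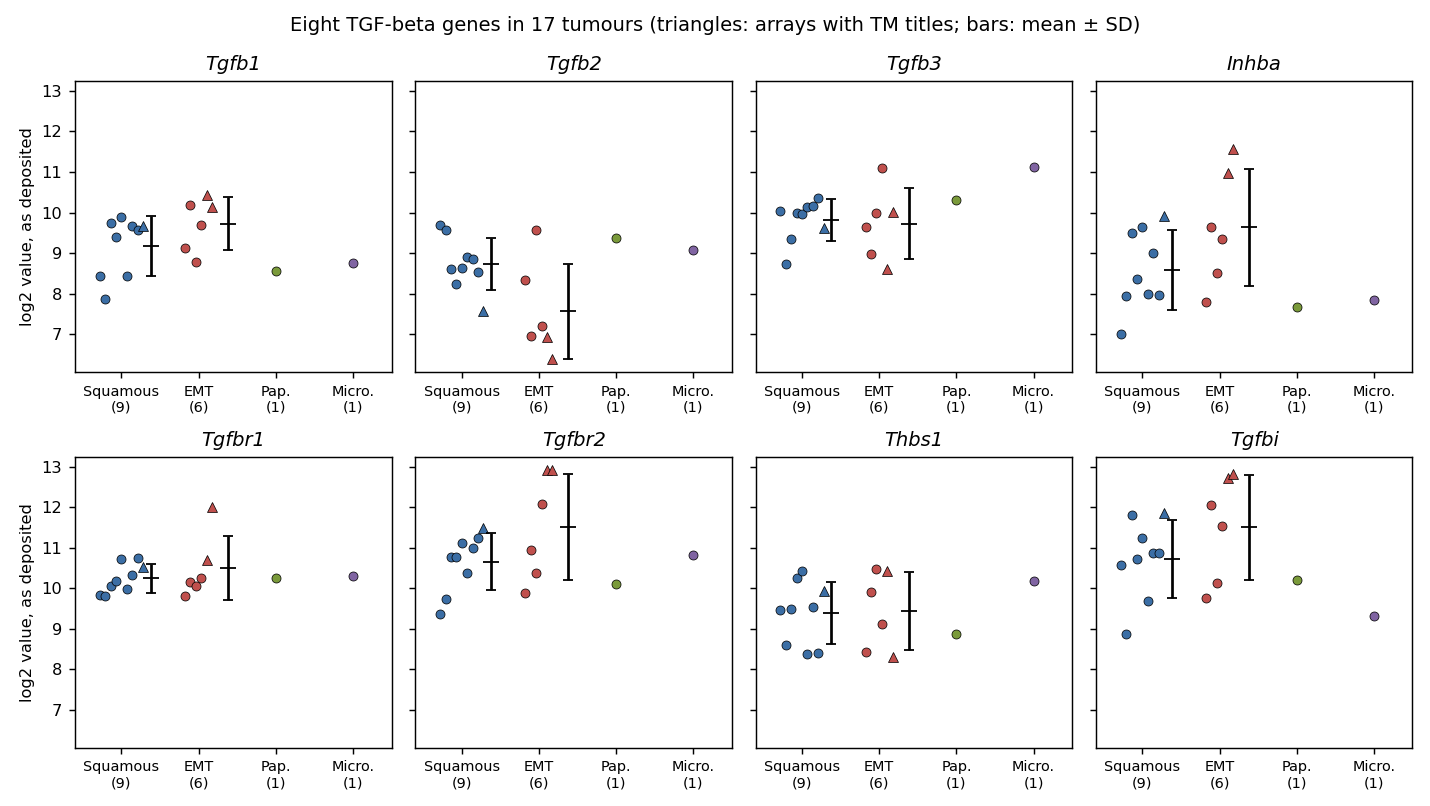
Log2 values as deposited (vertical axes) of the 8 genes in the 17 tumours by histology label (horizontal axes); each symbol is a tumour, triangles are arrays with TM titles, and bars give mean ± SD of the 9 Squamous and the 6 EMT tumours. On the probe sets used, Tgfb2 lies below every Squamous tumour in 4 EMT tumours. Tgfbr2, Tgfb1 and Tgfbi lie above every Squamous tumour in 3 EMT tumours each.

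**Figure D2:**
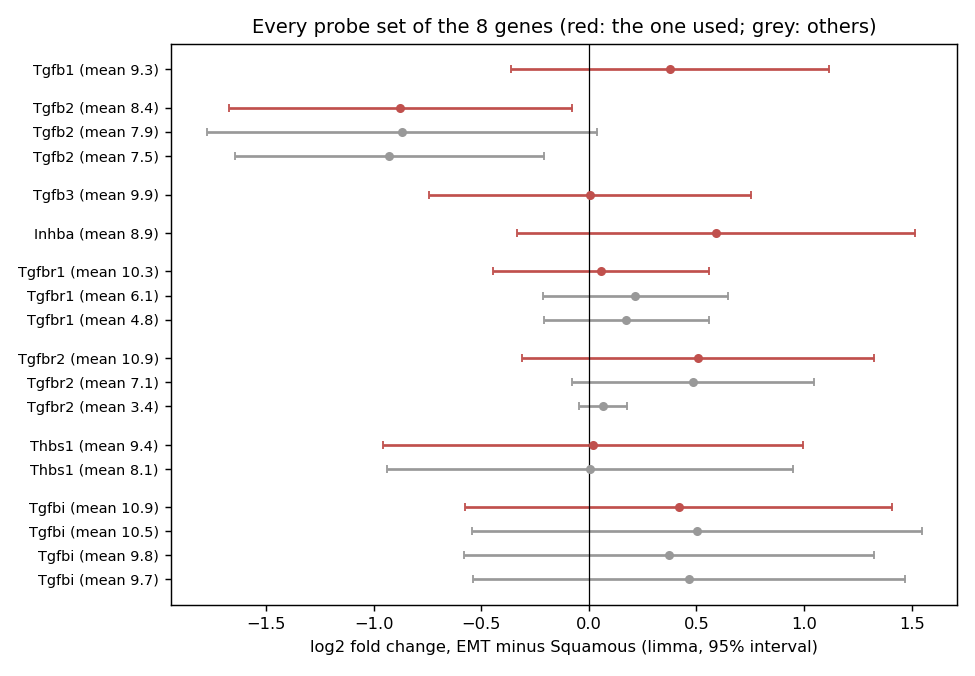
Fitted log2 difference, EMT minus Squamous, with its 95% interval (horizontal axis) for every probe set of the 8 genes (vertical axis, labelled with the mean level over 17 arrays); red marks the probe set used and grey the others. The 3 Tgfb2 probe sets lie between -0.93 and -0.87, with 1 of their 3 intervals crossing 0, and all intervals of the other genes cross 0.

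Of the 8 fitted differences 7 were above 0, with a median of 0.22, against a median of 0.01 and 51.8% above 0 over all genes. Tgfb3, Tgfbr1 and Thbs1 were close to 0, and each turned below 0 under at least 1 other setting. Tgfb1 and Tgfbi, above 0 otherwise, were at -0.04 and -0.13 with array weights. Tgfb2, Tgfbr2 and Inhba kept their direction under every setting tried.

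Correlations were computed over all tumours, over the numbered arrays and over the Squamous tumours, and not within the EMT tumours alone. Over 17 tumours, 15 of the 28 pairs had a Pearson correlation with an adjusted p under 0.05 by permutation, with adjustment over the 28 pairs, and 14 of these also passed by Spearman rank. Those 15 pairs were the pairs among Tgfb1, Tgfb2, Tgfbr1, Tgfbr2, Tgfbi and Inhba. The share of all gene pairs that would pass was not computed, so the count does not set these genes apart from others. Of 6195 genes compared, Stx2 was closest to Tgfbr2 (r = 0.976), ahead of Inhba (r = 0.883), the closest of the 8. All 13 pairs with Tgfb3 or Thbs1 missed the threshold over 17 tumours. Without Squamous 8 and EMT 6, Tgfbr1 and Thbs1 passed, with r = 0.638 and rho = 0.636 (permutation, adjusted p = 0.0230 and 0.0309). Among the 14 numbered arrays 10 of the 15 pairs passed by Pearson correlation, and 8 pairs passed by rank. Among the 9 Squamous tumours 4 passed by Pearson correlation and 1 by rank, and all 15 had the same sign of r there.

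Tgfb1 and Tgfbi, ligand and target, had r = 0.898 and rho = 0.897 over 17 tumours (permutation p = 1e-05 for both, the smallest that 100000 resamples can give; adjusted p = 0.00014 and 0.00028). Without the 2 tumours farthest from the median of Tgfb1, Squamous 1 and Squamous 2, r was 0.908. It was 0.870 among the numbered arrays and 0.884 among the Squamous tumours (exact permutation, adjusted p = 0.0162). By rank the Squamous tumours gave rho = 0.833 (exact permutation, adjusted p = 0.0603), which missed the threshold.

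Tgfbr2 and Inhba had r = 0.883 and rho = 0.809 (permutation, adjusted p = 0.00014 and 0.00068). Without EMT 5 and EMT 6, both on TM arrays, r was 0.749, and among the numbered arrays it was 0.715. Among the Squamous tumours it was 0.776 (exact permutation, adjusted p = 0.0708), which missed the threshold.

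The receptors Tgfbr1 and Tgfbr2 had r = 0.797 and rho = 0.880 (permutation, adjusted p = 0.0002 and 0.00028). Without Squamous 8 and EMT 6 r was 0.798, and among Squamous tumours it was 0.861 (exact permutation, adjusted p = 0.0232). In EMT 4 Tgfbr2 was 1.43 above its Squamous mean and Tgfbr1 0.02 above its own. In EMT 5 these differences were 2.26 and 0.45. Tgfbr2 lay above every Squamous tumour in both, and Tgfbr1 lay inside the Squamous range on the probe set used.

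Tgfb2 had negative correlations with the same genes. With Tgfbr2 it had r = -0.843 and rho = -0.782 over 17 tumours (permutation, adjusted p = 0.00014 and 0.00106). Without EMT 5 and EMT 6 r was -0.727, among the numbered arrays -0.694 and among the Squamous tumours -0.887 (exact permutation, adjusted p = 0.0198). By rank this pair missed the threshold in both, with rho = -0.631 among the numbered arrays (permutation, adjusted p = 0.0505) and rho = -0.817 among the Squamous tumours (exact permutation, adjusted p = 0.0603). With Tgfb1 it had r = -0.824 and rho = -0.828 (permutation, adjusted p = 0.0002 and 0.00056), and -0.730 among Squamous tumours (exact permutation, adjusted p = 0.0826). The pair of Tgfb2 and Tgfbr1 rested on EMT 6, with r = -0.630 and rho = -0.527 over all tumours (permutation, adjusted p = 0.00722 and 0.0603) and r = -0.443 without EMT 6. Leaving out any 1 tumour kept the other 14 of the 15 pairs past the threshold.

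**Figure D3:**
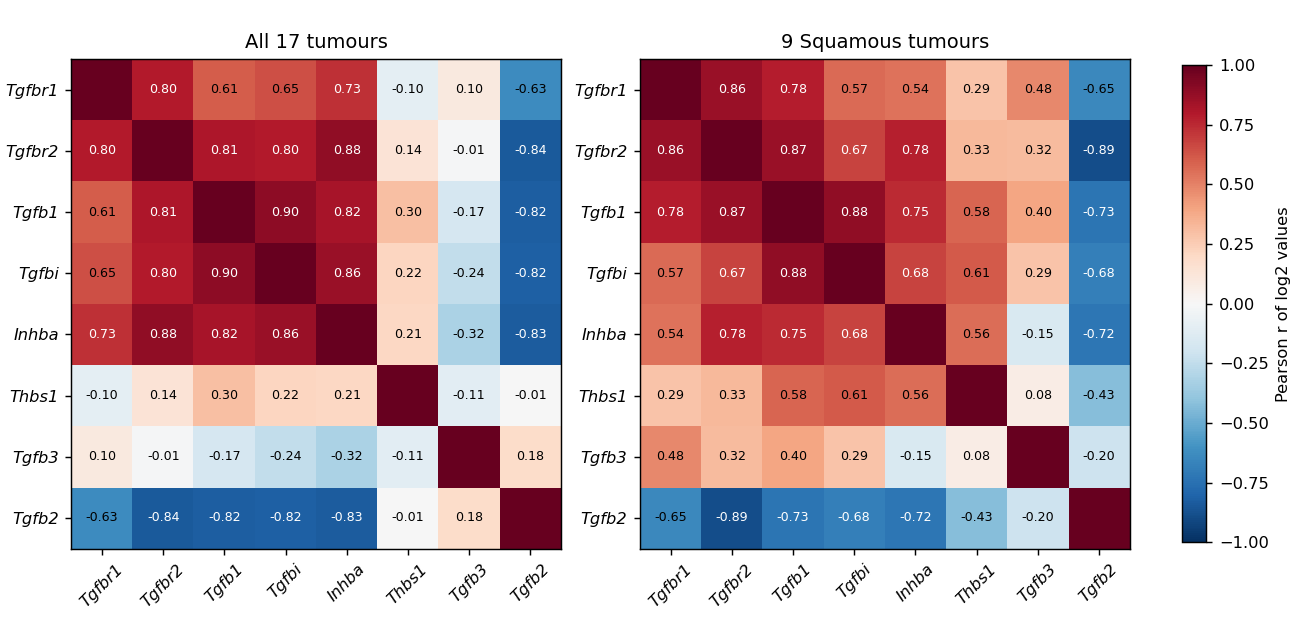
Pearson r between the log2 values of each pair of the 8 genes (both axes), over all 17 tumours on the left and over the 9 Squamous tumours on the right, with red above 0 and blue below 0. The block of Tgfbr1, Tgfbr2, Tgfb1, Tgfbi and Inhba and its opposition to Tgfb2 appear in both panels, while Tgfb3 and Thbs1 stay pale on the left.

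Markers of other cell types moved along with the same genes. Marker lists were summarised as the mean log2 value of their measured genes: 11 of 11 fibroblast, 12 of 12 macrophage, 8 of 8 endothelial and 6 of 8 platelet genes. The fibroblast mean ranged from 8.24 to 11.42 in Squamous and from 9.69 to 12.24 in EMT tumours. The macrophage mean ranged from 8.78 to 10.78 and from 9.29 to 12.05. The endothelial mean ranged from 6.30 to 8.34 and from 6.81 to 7.92. None of the fibroblast, macrophage or endothelial markers was below the lower quartile of all arrays throughout, and of the 6 platelet markers 1 was. No detection calls were used, so presence of a marker was not established.

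Tgfbr2 and the macrophage mean had r = 0.911 and rho = 0.850 over 17 tumours (permutation, adjusted p = 0.00088 and 0.00117 over the 88 relations of 8 genes with 11 lists). Without EMT 5 and EMT 6 r was 0.808, and among Squamous tumours it was 0.931 (exact permutation, adjusted p = 0.00509). EMT 5 (12.05) and EMT 6 (11.69), the 2 tumours with the most Tgfbr2, also had the highest macrophage means. With the fibroblast mean Tgfbr2 had r = 0.778 and rho = 0.789 (permutation, adjusted p = 0.00256 and 0.00191). Without Squamous 1 and Squamous 2 r was 0.681, and among Squamous tumours it was 0.957 (exact permutation, adjusted p = 0.0057), while rho there was 0.833 (exact permutation, adjusted p = 0.0677). Squamous 1 and Squamous 2 had the lowest fibroblast means, 8.24 and 8.68, as well as the lowest macrophage means and the lowest Tgfbr2 levels.

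Tgfb2 was low where the endothelial and fibroblast means were high. With the endothelial mean it had r = -0.751 and rho = -0.811 over 17 tumours (permutation, adjusted p = 0.00386 and 0.00185). Without Squamous 1 and Squamous 2 r was -0.677, and among Squamous tumours it was -0.964 (exact permutation, adjusted p = 0.00388). With the fibroblast mean it had r = -0.741 and rho = -0.765 (permutation, adjusted p = 0.00409 and 0.00323). Without the same 2 tumours r was -0.672, and among Squamous tumours it was -0.897 (exact permutation, adjusted p = 0.00388). With the macrophage mean Tgfb2 had r = -0.701 and rho = -0.672 over 17 tumours (permutation, adjusted p = 0.00859 and 0.0145), a relation that did not hold among the numbered arrays (r = -0.415, permutation, adjusted p = 0.326) or without EMT 5 and EMT 6 (r = -0.471, permutation, adjusted p = 0.264). With the epithelial mean, where EMT 4, EMT 5 and EMT 6 stand apart and no pooled value is given, Tgfb2 had r = 0.860 and rho = 0.900 among Squamous tumours (exact permutation, adjusted p = 0.0219 and 0.0297). Tgfbr2 went against the epithelial mean there, with r = -0.818 (exact permutation, adjusted p = 0.0451). By rank that relation missed the threshold (rho = -0.817, exact permutation, adjusted p = 0.0677).

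Tgfb1 went with the fibroblast mean over 17 tumours, with r = 0.805 and rho = 0.730 (permutation, adjusted p = 0.00211 and 0.00601), and without Squamous 1 and Squamous 2 r was 0.703. By rank the relation missed the threshold without these 2 tumours (rho = 0.611, permutation, adjusted p = 0.0710). It also missed by rank among Squamous tumours (rho = 0.550, exact permutation, adjusted p = 0.238). Tgfb1 went about as closely with the endothelial mean (r = 0.815, rho = 0.743) and the macrophage mean (r = 0.801, rho = 0.716). Tgfbr1 passed with the macrophage mean, with r = 0.780 and rho = 0.824 (permutation, adjusted p = 0.00246 and 0.00185) and r = 0.778 without EMT 5 and EMT 6. Tgfbi and Inhba passed, by r and by rho, with the macrophage mean (r = 0.773 and 0.809) and the endothelial mean (r = 0.701 and 0.713). They also passed with the fibroblast mean (r = 0.639 and 0.645). With the macrophage mean both missed the threshold among the numbered arrays (r = 0.562 and 0.561). Thbs1, which platelets store, had r = 0.417 and rho = 0.314 with the platelet mean (permutation, adjusted p = 0.236 and 0.451), and r = 0.393 without EMT 2 and Squamous 9. No list passed with Thbs1 over 17 tumours. The platelet mean did pass, by r and by rho, with Tgfb1 (r = 0.726), Tgfb2 (r = -0.735), Tgfbi (r = 0.696) and Inhba (r = 0.629). With Tgfbr2 it passed by rank alone (rho = 0.711, permutation, adjusted p = 0.00858), and with Tgfbr1 and Tgfb3 it missed the threshold. With Tgfb3 only the skeletal muscle mean passed, and by rank alone, with r = 0.521 and rho = 0.596 (permutation, adjusted p = 0.1 and 0.0392). Without the Microacinar tumour and EMT 4 r was 0.225, and among Squamous tumours it was 0.021 (exact permutation, adjusted p = 0.965). The part of these cell types in the levels of the 8 genes was not tested.

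**Figure D4:**
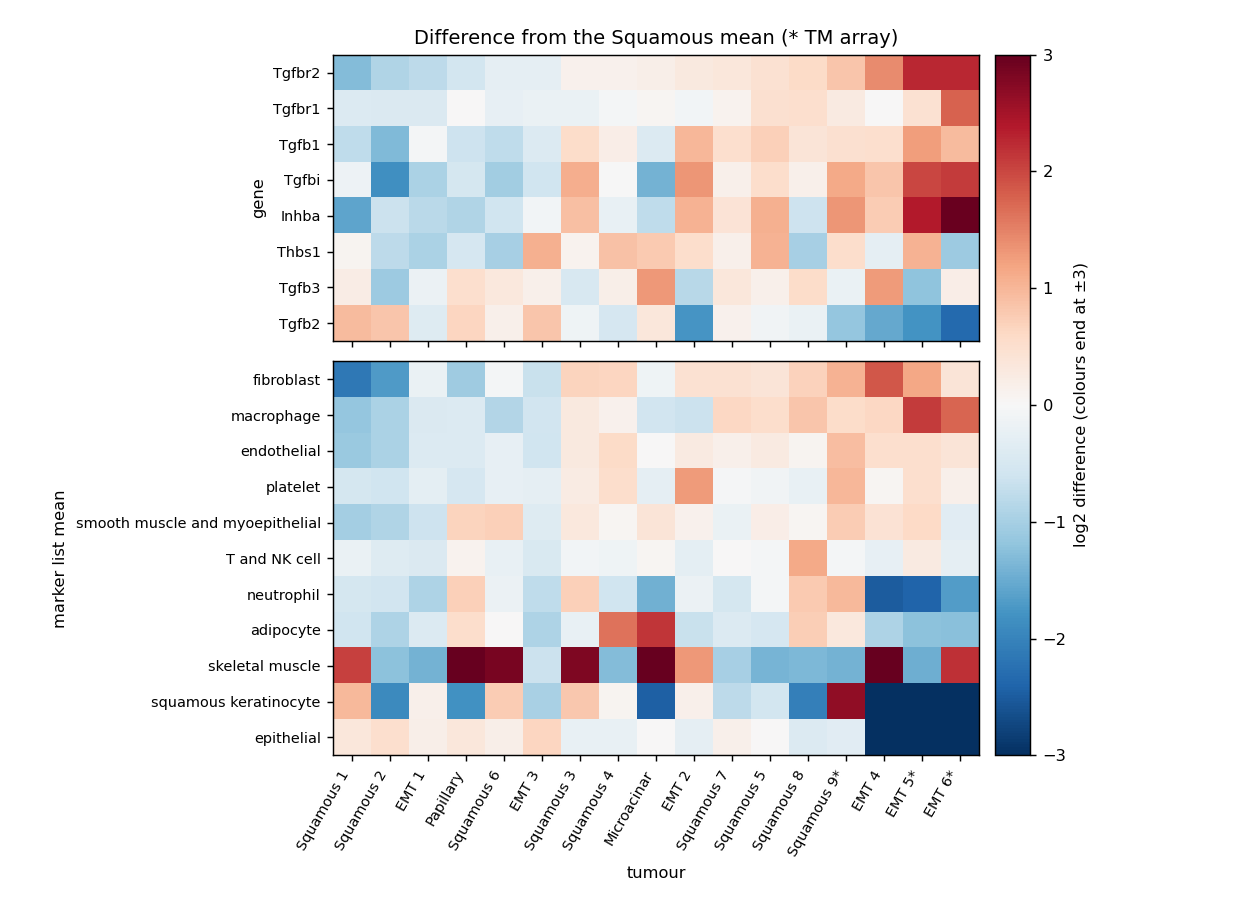
Log2 difference from the mean of the 9 Squamous tumours (colour, ending at 3 in either direction) for the 8 genes (upper rows) and 11 marker list means (lower rows) in each of the 17 tumours, ordered by Tgfbr2; an asterisk marks an array with a TM title. Tgfb2 turns from red to blue along this order while Tgfbr2, Tgfb1, Tgfbi, Inhba and the fibroblast and macrophage means turn from blue to red, and the epithelial mean is low in EMT 4, EMT 5 and EMT 6 only.

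The genes most like each of the 8 were found by Pearson r over the 17 tumours among 6195 genes above the level of the median gene, as a description. Stx2 (r = 0.976) and Tln1 (r = 0.974), the gene of the cytoskeletal protein talin, were most like Tgfbr2. Tln1 (r = 0.859) and Vamp4 (r = 0.861) were also most like Tgfbr1. Pdpn, the gene of podoplanin, was most like Tgfb1 (r = 0.949), followed by Tnfaip8 (r = 0.929). Inhba was closest to Ccr1, the gene of a chemokine receptor (r = 0.953), and to Actb, the gene of beta-actin (r = 0.952). Tgfbi was closest to Lrrk1 (r = 0.929) and Sh3bgrl3 (r = 0.926), and Tgfb2 to Ubxn2a (r = 0.954) and Prodh (r = 0.951), the gene of proline dehydrogenase. Tgfb3 and Thbs1 had no such close neighbours: the best were Ccser2 (r = 0.773) and Car3 (r = 0.735) for Tgfb3, and Socs2 (r = 0.731) and Duoxa1 (r = 0.639) for Thbs1.

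Of 81 further genes of the pathway, 69 were measured, and none passed the adjusted threshold between EMT and Squamous tumours. At an unadjusted p under 0.05, 6 were higher and 1 lower in EMT, which is 7 of 69 beside the 14.3% of all genes. Their median fitted difference was 0.20, with 45 above 0, beside 0.01 over all genes. By role, 23 of 30 targets (median 0.41) and 8 of 11 latency and activation genes (median 0.46) were above 0. All 3 measured Smad genes were above 0 (median 0.21), and 7 of 12 inhibitors were (median 0.09). Only 2 of 8 receptors and co-receptors (median -0.08) and 2 of 5 ligands and co-ligands (median -0.01) were above 0. Of the fibroblast markers 4, and of the smooth muscle markers 2, are also in this list.

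Timp1, a metalloproteinase inhibitor gene induced by TGF-beta, had the highest fitted difference among the targets, 1.43 with an SE of 0.669 (limma, adjusted p = 0.352). It was 10.57, 11.91, 9.87, 12.59, 14.16 and 12.67 in EMT 1 to EMT 6 and ranged from 7.83 to 11.69 in Squamous tumours. EMT 2, EMT 4, EMT 5 and EMT 6 lay above every Squamous tumour. They were the same 4 that lay below them for Tgfb2 on the probe set used. Edn1, the endothelin 1 gene, was lowest among the targets at -0.26, with -0.12 without EMT 6 and -0.49 without EMT 5. Among the inhibitors Fstl3, whose follistatin-like product binds activin, was highest at 0.61 (limma, adjusted p = 0.345), with 9.66 in EMT 5 and a highest Squamous value of 7.88. It was 0.39 without Squamous 9. Bambi, a pseudoreceptor gene, was lowest at -1.23 (limma, adjusted p = 0.447), at 6.46 to 6.89 in EMT 2, EMT 4, EMT 5 and EMT 6, and at 10.29 in EMT 1. Its Squamous values ran from 6.60 to 10.40, so of those tumours only EMT 6 lay below them. The Bambi difference was -0.59 without Squamous 9 and -1.87 without EMT 1.

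Smad4, the common partner of the receptor-regulated Smads, was the highest Smad at 0.22 (limma, adjusted p = 0.302), with an EMT mean of 11.04 ± 0.28 (SD, n = 6) and a Squamous mean of 10.75 ± 0.13 (SD, n = 9). Another Smad4 probe set gave -0.06. Smad2 was lowest at 0.01. Mmp2, the gene of a matrix metalloproteinase that can release latent TGF-beta, was highest among the latency and activation genes at 0.69, and at 0.25 without EMT 4. Itgb6, which encodes a subunit of an activating integrin of epithelium, was lowest there at -0.24, and at 0.01 without EMT 4. Without the title format term the Itgb6 difference was -0.82. Its level was 3.98 in EMT 5, 4.02 in EMT 6 and 4.19 in Squamous 9, all on TM arrays. Among the receptors Acvr1 was highest at 0.20 and Acvr1b, an activin type I receptor gene, lowest at -0.55. Without EMT 4 these were 0.04 and -0.17. Among the ligands Inhbe was highest at 0.02, at the low level of 4.16 in EMT and 4.25 in Squamous tumours, and Inhbb lowest at -0.50, which turned to 0.06 without EMT 4.

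**Figure D5:**
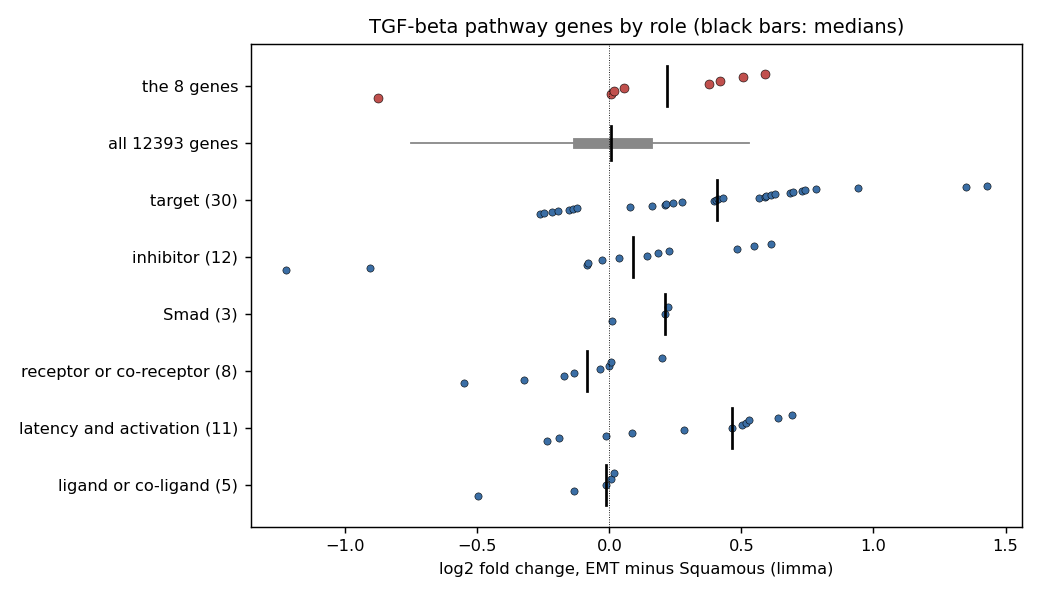
Fitted log2 difference, EMT minus Squamous (horizontal axis), of the 8 genes (red) and of 69 further pathway genes by role (blue; number measured in brackets), each point a gene and each black bar a median. For all 12393 genes the thick grey line spans the middle 50% and the thin line the 5th to 95th percentile; the medians of targets (0.41) and of latency and activation genes (0.46) lie right of the median of all genes (0.01).

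Single tumours combined the 8 genes in different ways, with ranks taken on the probe sets used. EMT 6 was highest of the 17 for Tgfbr1, Tgfbr2, Tgfbi and Inhba and lowest for Tgfb2 and Thbs1. EMT 5 was highest for Tgfb1 and lowest for Tgfb3. EMT 1, although labelled EMT, ranked 15 of 17 for Tgfbr2 and for Inhba and 14 for Tgfbi. Squamous 9, on a TM array, ranked 4 of 17 for Tgfbr2 and for Tgfbi and 3 for Inhba, the highest Squamous tumour for each. Squamous 1 was lowest of all for Tgfbr2 and Inhba and highest for Tgfb2. The Papillary tumour ranked 4 of 17 for Tgfb2 and 14 for Tgfb1 and Tgfbr2, close to the low Squamous tumours. The Microacinar tumour was highest for Tgfb3 and ranked 16 for Tgfbi and 9 for Tgfbr2. Papillary and Microacinar are 1 tumour each, with no spread, so their levels are descriptions of those tumours.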

How the data were processed

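RNA of 17 tumours was measured on Affymetrix arrays, 1 per tumour, from biotin-labelled cRNA, per the labels' protocols. What the authors deposited is a log2 value for each of 22690 probe sets. Its normalization is not given in the sources used here, and the values themselves showed the scale. Array medians lay between 7.23 and 7.40, and no further normalization was applied. No detection calls were used.

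The supplied probe table gave 20380 probe sets 1 symbol, 691 several and 1555 none, and 64 controls were left out. Each of 12393 genes was read from its probe set with the highest mean; a probe set shared by Thbs1 and another gene was not used. The 6 EMT and 9 Squamous tumours were compared in R 4.3.3 by limma 3.58.1. The model added a title format term to the histology, with Benjamini-Hochberg adjustment over all genes at 0.05. Correlations used permutation of pairings, with 100000 resamples, or all 362880 pairings for the 9 Squamous tumours, two-sided. The fit was tested on simulated data. Replicate numbers were given in accession order and pair no tumours. Squamous 7 and Squamous 8 share the title number 1407, and 1308 is on Squamous 5 and the Microacinar tumour. Other steps ran in Python 3.11.15 (scipy 1.17.1, pandas 2.3.3, numpy 2.4.6, matplotlib 3.10.9).

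The 8 genes, the 81 pathway genes and the marker lists were chosen from general knowledge, with earlier results of these data known. Named beside the 8 were, for each role, the pathway gene with the highest and the lowest fitted difference and, for each of the 8, the 2 genes with the highest correlation. Alternatives covered the title term, normalization, probe sets, weights, low genes, all 4 labels in 1 fit, the 1407 tumours averaged and each tumour left out; leaving tumours out of the pair correlations was added after seeing the data.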

Additional observations from a re-analysis of the deposited data

Results flagged for a closer look

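No value of the 8 genes stood apart from its group by the gap of the highest or lowest tumour to its neighbour, set against Dixon's 95% limit for the group's range. Of 40 groups checked, the 8 genes and the 12 pathway genes named by role, 5 had such a tumour, where chance gives about 1 in 20. Inhbb was lowest in EMT 4, at 6.86 where the nearest EMT tumour had 9.41. Smad2 was lowest in EMT 4 as well, at 7.94 against 8.36. Edn1 was highest in EMT 5, at 9.32 against 7.77. In Squamous 9, on a TM array, Itgb6 was lowest of 9 at 4.19 against 5.96, and Inhbe was lowest at 3.84 against 4.14. Inhbe had 3.84 on all 3 TM arrays, in Squamous 9, EMT 5 and EMT 6.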

How the results depend on the processing

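The call of 0 of 8 genes at the adjusted threshold held under every alternative at that threshold; without a threshold on the adjusted p, at an unadjusted p under 0.05, 1 of the 8, 7 of the 69 pathway genes and 1778 of all genes were called. Leaving out 1 tumour called between 0 and 14 genes in all, the 14 without EMT 1. The count of correlated pairs was 15 over 17 tumours, 4 in the 9 Squamous tumours only, and 14 to 15 with 1 tumour left out.

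Array weights turned Tgfb1 to -0.0423, Tgfb3 to -0.053, Tgfbr1 to -0.058, Tgfbi to -0.125, Thbs1 to -0.0781 and Mmp2 to -0.00918. Without the title term, in the fit and by exact permutation, Tgfb3 was at -0.0949 and Inhbe at -0.0874. Quantile normalization put Tgfb3 at -0.00666, numbered arrays alone put Tgfbr1 at -0.136, and averaging Squamous 7 and Squamous 8, which share a title number, put Thbs1 at -0.0278 and Smad2 at -0.0166. Another probe set gave -0.0517 for Acvr1 and -0.0617 for Smad4. With 1 tumour left out, ranges crossing 0 were -0.308 to 0.235 for Tgfb3, -0.136 to 0.154 for Tgfbr1, -0.258 to 0.260 for Thbs1, -0.0357 to 0.0576 for Inhbe, -0.783 to 0.0634 for Inhbb, -0.416 to 0.00579 for Itgb6 and -0.047 to 0.104 for Smad2. The cause of these turns was not tested. Tgfb2 stayed between -1.27 and -0.39, Tgfbr2 between 0.02 and 0.87 and Inhba between 0.09 and 1.05.

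With 6 EMT and 9 Squamous tumours, a difference such as that of Thbs1 has a 95% interval from -0.96 to 1.00 on the log2 scale, so smaller differences were not resolved. Signal over background was not in the values used.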
